A study of Homo sapiens with 9 samples.

Results

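Integrin subunits were followed through Huh7 hepatocellular carcinoma cells in which the gene ZMAT2 was knocked down. The set was defined by gene name, as the rows of the deposited expression table for ITGA1, ITGA2, ITGA3, ITGA5, ITGA6, ITGAV, ITGB1, ITGB3, ITGB4 and ITGB5, so it held 10 of the 27421 genes in the table, 6 alpha and 4 beta subunits. Of the 10 genes, 7 had at least 1 FPKM (a fragment count divided by gene length and library size) in every library and could be tested, and ITGA3, ITGB3 and ITGB4 did not reach that level in any library.

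Integrins are cell-surface receptors built from an alpha and a beta chain, and the pair decides what the receptor binds. ITGB1 encodes beta1, the common partner that forms collagen receptors with ITGA1 and ITGA2, the classical fibronectin receptor with ITGA5 and laminin receptors with ITGA3 and ITGA6, while ITGAV pairs with several beta chains, including those of ITGB1, ITGB3 and ITGB5, to bind vitronectin, fibronectin and latent TGF-beta. ITGB4 pairs with ITGA6 in the hemidesmosome, which ties epithelial cells to laminin, and on ligand binding integrins recruit talin, kindlin and focal adhesion kinase to link the matrix to actin. Normal hepatocytes are known for a narrow integrin set centred on the collagen receptor of ITGA1, and liver cancer cells for a wider one.

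The study asked whether ZMAT2, a zinc finger protein of the spliceosome, acts on liver cancer through mRNA splicing. RNA was sequenced from 3 libraries labelled shZMAT2-1 and 3 labelled shZMAT2-2, each from cells with a different short hairpin against ZMAT2, and from 3 control libraries, all from the Huh7 line, an established human hepatoma line, with poly(A) selection and strand-specific preparation. The labels leave unsaid how the hairpins were delivered, whether an arm was a pool or a clone, what the control cells carried and when RNA was taken. Nor do they call the replicates separate cultures: each p-value reflects library-to-library spread alone, which may be technical. ZMAT2 stood at 12.8 to 15.2 FPKM in shZMAT2-1 libraries and 20.3 to 22.1 FPKM in shZMAT2-2 libraries, against 32.8 to 39.2 FPKM in control libraries.

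The FPKM values corresponded to 18430000 to 23740000 fragments per library. All 8 hepatocyte and hepatoma markers, among them ALB and AFP, averaged at least 1 FPKM over the libraries, while 0 of 7 fibroblast markers, 0 of 3 platelet markers, 1 of 4 endothelial markers (PECAM1) and 2 of 7 leukocyte markers (CD14 and ITGAL) did. Libraries differed in the share of FPKM-derived fragments from the 13 mitochondrially encoded genes, which was 8.25%, 16.4% and 7.70% in shZMAT2-1 replicates 1 to 3, 27.0%, 14.5% and 16.6% in shZMAT2-2 replicates 1 to 3, and 7.86%, 43.2% and 8.28% in control replicates 1 to 3. Control replicate 2, shZMAT2-1 replicate 2 and shZMAT2-2 replicate 1 thus stood apart from the other libraries of their groups. Other things equal, a larger mitochondrial share lowers the FPKM of nuclear genes, so integrin values are also given after division by the non-mitochondrial share of each library, called nuclear-scaled FPKM, and as ratios between subunits of the same library, which no scaling of a library can change. In bulk RNA, fewer cells carrying a transcript and less of it per cell cannot be told apart.

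ITGB1 was the most abundant subunit in all 9 libraries, at a mean of 52.3 ± 12.4 FPKM over the libraries (SD, n = 9). A middle group followed, with ITGA5 at a mean of 24.0 FPKM, ITGB5 at 21.4 FPKM, ITGA6 at 19.1 FPKM and ITGAV at 15.2 FPKM. The order inside this group was not firm: ITGA5 exceeded ITGB5 in 6 of 9 libraries, ITGB5 exceeded ITGA6 in 5 of 9, and ITGA6 exceeded ITGAV in 8 of 9. The collagen receptor chains ITGA2 and ITGA1 came next, at means of 4.61 and 4.30 FPKM, again in no fixed order, with ITGA2 the higher in 5 of 9 libraries. ITGB4, ITGB3 and ITGA3 closed the series at means of 0.56, 0.16 and 0.071 FPKM. The transcripts at 1 FPKM or more were those for chains of collagen, fibronectin, laminin and vitronectin receptors. These levels are per the gene length behind the authors' FPKM, and the lengths that gave whole fragments were 1.00 times the longest coding transcript of GENCODE release 29 for ITGA2, 1.72 times for ITGA1 and 2.75 times for ITGAV (no such length was found for ITGB1). Per that transcript the means were 41.7 for ITGAV, 39.8 for ITGA5, 31.9 for ITGB5, 22.7 for ITGA6, 7.41 for ITGA1 and 4.63 for ITGA2, so the order of subunits depends on the length used, while a comparison of 1 subunit or 1 ratio between libraries does not. mRNA levels do not give the amounts of the paired receptors at the surface.

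**Figure D1:**
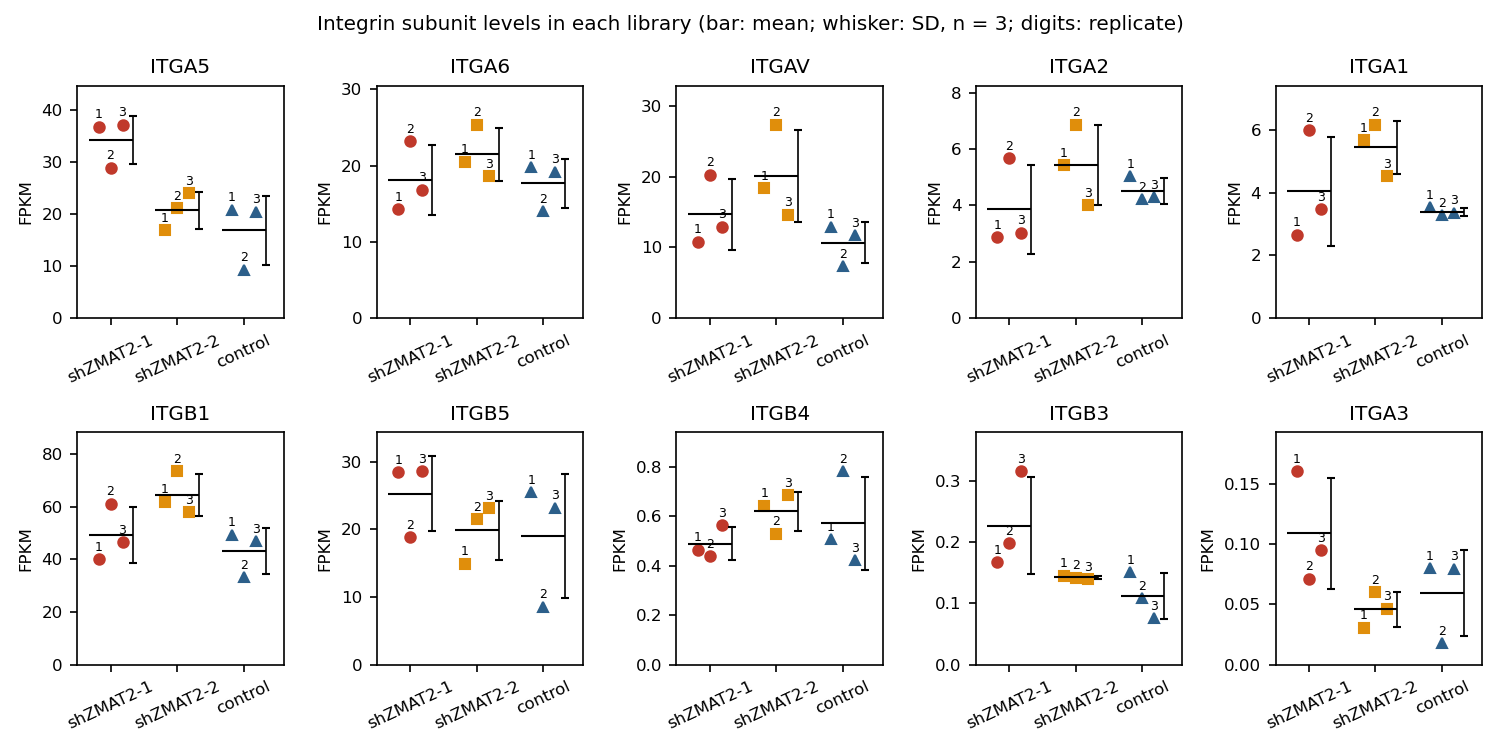
FPKM of the 10 integrin subunits (vertical axis, a separate linear scale from 0 in each panel) in each library of the shZMAT2-1, shZMAT2-2 and control groups, with the mean as a bar, the SD as a whisker (n = 3) and the replicate number beside each point. ITGA5 lies between 29.0 and 37.2 FPKM in shZMAT2-1 libraries, above all 3 control libraries, and replicate 2 of the shZMAT2-1 and control groups stands apart for most subunits.

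No integrin subunit passed an adjusted p of 0.05 in any comparison in the unpaired fit of FPKM over all 9 libraries. limma called 9 of 11245 tested genes for shZMAT2-1 against control, 0.08% of them, 66 genes or 0.587% for shZMAT2-2 against control, 61 genes or 0.542% for the mean of both arms against control, and 0 genes or 0% for shZMAT2-2 against shZMAT2-1. At an unadjusted limma p under 0.05 there were 648, 787, 779 and 465 genes in these comparisons, of which 1, 3, 2 and 1 were integrin subunits. Both arm comparisons use the same 3 control libraries. The median log2 fold change of the 7 tested subunits was 0.18 in shZMAT2-1 and 0.35 in shZMAT2-2, beside medians over all tested genes of 0.16 and 0.05. The shZMAT2-1 median was 0.41 on TPM, beside 0.37 over all tested genes, and 0.19 with a mitochondrial covariate, beside 0.05. Under the other scalings it was near 0, at 0.00017 on nuclear-scaled values, 0.0017 with quantile normalization and 0.02 with median-of-ratios scaling. It was −0.14 without control replicate 2 and shZMAT2-1 replicate 2. In the nuclear-scaled, quantile, median-of-ratios and left-out fits the medians over all tested genes were 0.01, −0.0014, 0.03 and −0.01. The shZMAT2-2 median was 0.32 on nuclear-scaled values and 0.16 without these libraries, beside medians over all tested genes of 0.03 and −0.15. Fold changes are on the log2(FPKM + 1) scale, which understates changes of low genes.

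ITGA5, the alpha chain of the fibronectin receptor, had the widest range of the 10 genes on the log2(FPKM + 1) scale and the highest estimate for shZMAT2-1. The gene lies on the minus strand of chromosome 12 at 54395261 to 54419266 in the deposited table (build not stated). Its FPKM was 36.8, 29.0 and 37.2 in shZMAT2-1 replicates 1 to 3 and 16.9, 21.2 and 24.1 in shZMAT2-2 replicates 1 to 3, against 20.9, 9.30 and 20.5 in control replicates 1 to 3. The shZMAT2-1 libraries lay above all control libraries, and the shZMAT2-2 libraries overlapped with them. The log2 fold change was 1.05 ± 0.30 (SE) for shZMAT2-1 against control, with a limma p of 0.0055 and a limma adjusted p of 0.397, and 0.35 ± 0.30 for shZMAT2-2 against control, with a limma adjusted p of 1. The means were 34.3 ± 4.65 FPKM in shZMAT2-1, 20.7 ± 3.63 FPKM in shZMAT2-2 and 16.9 ± 6.56 FPKM in control libraries (SD, n = 3 each), so the shZMAT2-1 mean was 2.03 times the control mean.

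The call for ITGA5 in shZMAT2-1 turned on how the libraries were scaled. It also turned on the replicate number as a block in a fit of shZMAT2-1 and control alone. Nuclear-scaled ITGA5 was 40.1, 34.6 and 40.3 in shZMAT2-1 replicates 1 to 3 and 23.1, 24.8 and 28.9 in shZMAT2-2 replicates 1 to 3, against 22.6, 16.4 and 22.3 in control replicates 1 to 3. On this scale all 6 knockdown libraries lay above all 3 control libraries, the lowest by 23.1 against 22.6. For shZMAT2-1 against control, the limma estimate on nuclear-scaled values was 0.89 ± 0.15 with an adjusted p of 0.048, with median-of-ratios scaling it was 0.90 with an adjusted p of 0.040, and with quantile normalization it was 0.80 with an adjusted p of 0.036. ITGA5 thus rose in shZMAT2-1 under these 3 scalings, where the median of all genes was 0.01, 0.03 and −0.0014 in place of 0.16, and it missed the threshold on FPKM and on TPM. Those scalings called 0.631%, 0.685% and 0.703% of all tested genes in this comparison. Same-numbered shZMAT2-1 and control libraries deviated together, and with the replicate number as a block in a fit of these groups alone, added after seeing the data, the ITGA5 estimate on FPKM was 1.05 with a limma adjusted p of 0.0027, 1 of 7 subunits where 2.21% of all genes were called. Replicate 2 had the highest mitochondrial share in both of these groups, and the part of that share in the pairing was not tested. For shZMAT2-2 against control, the nuclear-scaled estimate was 0.32 ± 0.15 with a limma adjusted p of 0.515. The FPKM estimate for shZMAT2-2 rested on control replicate 2, and was −0.01 without it.

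Among libraries with a mitochondrial share under 10%, which are shZMAT2-1 replicates 1 and 3 and control replicates 1 and 3, ITGA5 FPKM averaged 37.0 in shZMAT2-1 and 20.7 in control, a ratio of 1.79 (n = 2 each, no test). ITGB5 was also higher in both of these shZMAT2-1 libraries, by a ratio of means of 1.17. ITGA2, ITGA6 and ITGB1 were lower in both, by ratios of 0.63, 0.80 and 0.90, and ITGA1 and ITGAV overlapped. How many of all tested genes separated between these libraries was not counted, so these differences have no background. With 2 libraries a group, separation is easily reached without any change. This split by mitochondrial share was added after the data were seen, and no shZMAT2-2 library falls under 10%, so the second hairpin has no such comparison.

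Leaving out the library with the highest mitochondrial share of each group (control replicate 2, shZMAT2-1 replicate 2 and shZMAT2-2 replicate 1), also added after the data were seen, left 2 libraries a group that had been chosen for their like shares, so their spread may be too small a measure of error. For shZMAT2-1 against control, limma then called 1 of 7 subunits, ITGA5 (0.81, adjusted p = 0.0059), where 8.31% of all tested genes were called. For shZMAT2-2 against control it called ITGA1 (0.50, adjusted p = 0.041) and ITGB1 (0.43, adjusted p = 0.035), where 32% of genes were called, and ITGA5 stood at 0.12 (limma adjusted p = 0.292). Between the arms it called 6 of 7, all but ITGAV, where 41.8% of genes were called, with ITGA5 (−0.69) and ITGB5 (−0.34) lower and ITGA1, ITGA2, ITGA6 and ITGB1 higher by 0.46 to 0.67.

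**Figure D2:**
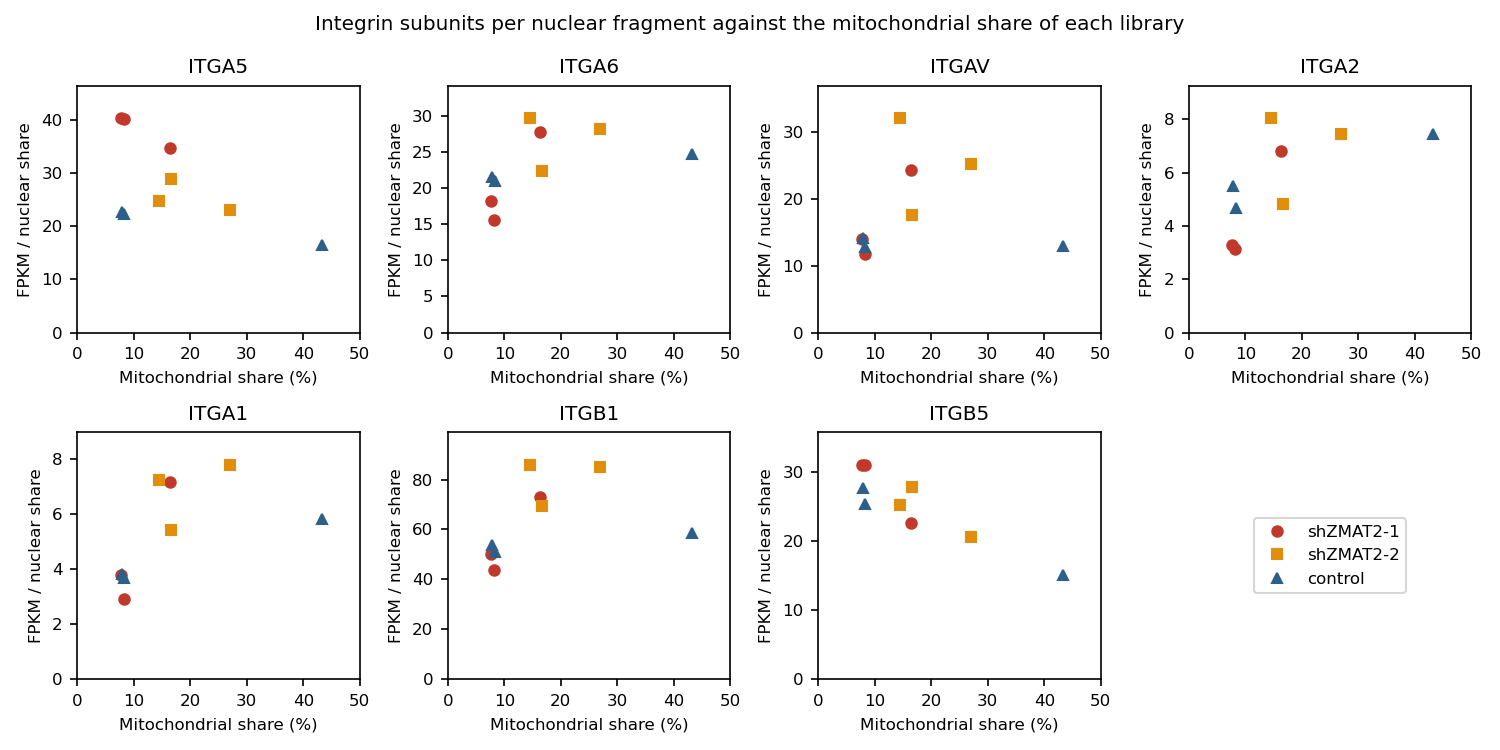
FPKM divided by the non-mitochondrial share of each library (vertical axis, linear from 0) against the mitochondrial share of that library in percent (horizontal axis), for the 7 subunits tested, with 1 point per library. At shares near 8% the shZMAT2-1 points of ITGA5 stand at 40.1 and 40.3, above the control points at 22.6 and 22.3, while those of ITGAV and ITGA1 stand beside the control points.

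The start region of ITGA5 is shown because ITGA5 was the subunit with the largest estimate. The RefSeq window (GRCh38.p14, chr12:54419217-54419516, minus strand, 250 bases before to 50 after the annotated start, whose position equals the gene end in the deposited table) is given 5′ to 3′, with capitals for GGGCGG, the GC box bound by Sp1-type factors, for TGANTCA, the AP-1 element, and for GGAATG, the core of the TEAD element, on either strand.
ITGA5: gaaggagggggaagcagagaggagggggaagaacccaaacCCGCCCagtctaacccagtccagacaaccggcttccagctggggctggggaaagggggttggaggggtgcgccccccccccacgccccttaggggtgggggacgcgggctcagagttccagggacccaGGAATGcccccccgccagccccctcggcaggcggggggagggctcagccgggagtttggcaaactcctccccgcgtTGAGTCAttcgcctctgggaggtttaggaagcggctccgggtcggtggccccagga
The window held TGAGTCA from 6 bases before the start, GGAATG from 82 bases before it and the reverse strand of GGGCGG from 210 bases before it, none overlapping another. Of 35116 RefSeq windows of this length, 7.71% held TGANTCA, 14.0% held GGAATG and 45.0% held GGGCGG. A match describes these letters and does not show binding.

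ITGB1, ITGAV and ITGA1 were the tested subunits with every shZMAT2-2 library above every control library on FPKM. Their group means were highest in shZMAT2-2, as were those of ITGA6 (21.5 FPKM) and ITGA2 (5.44 FPKM). ITGB1 had 40.1, 61.1 and 46.4 FPKM in shZMAT2-1 replicates 1 to 3 and 62.0, 73.5 and 58.0 FPKM in shZMAT2-2 replicates 1 to 3, against 49.4, 33.3 and 46.8 FPKM in control replicates 1 to 3. The shZMAT2-2 libraries lay above all control libraries, and the shZMAT2-1 libraries spanned them. Its log2 fold change was 0.58 ± 0.24 (SE) for shZMAT2-2 against control, with a limma adjusted p of 0.648, and 0.18 ± 0.24 for shZMAT2-1 against control, with a limma adjusted p of 0.811.

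ITGAV had 10.8, 20.3 and 12.9 FPKM in shZMAT2-1 replicates 1 to 3 and 18.4, 27.4 and 14.6 FPKM in shZMAT2-2 replicates 1 to 3, against 13.0, 7.35 and 11.7 FPKM in control replicates 1 to 3. Every shZMAT2-2 library was above every control library, although shZMAT2-2 replicate 3 was close to control replicate 1. The log2 fold change was 0.85 ± 0.31 (SE) for shZMAT2-2 against control, with a limma p of 0.0206 and a limma adjusted p of 0.519, and 0.41 ± 0.31 for shZMAT2-1, with a limma adjusted p of 0.805. Nuclear-scaled ITGAV was 17.6 to 32.0 in shZMAT2-2 libraries, against 12.8 to 14.1 in control libraries.

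ITGA1 had 2.66, 6.00 and 3.48 FPKM in shZMAT2-1 replicates 1 to 3 and 5.69, 6.18 and 4.53 FPKM in shZMAT2-2 replicates 1 to 3, against 3.53, 3.29 and 3.36 FPKM in control replicates 1 to 3. The shZMAT2-2 libraries were again all above the control libraries, while 1 shZMAT2-1 library was below them. The log2 fold change was 0.55 ± 0.23 (SE) for shZMAT2-2 against control, with a limma adjusted p of 0.670. After nuclear scaling ITGA1 in shZMAT2-2 overlapped with control, since control replicate 2 moved to 5.80 and shZMAT2-2 replicate 3 stood at 5.43.

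ITGA6, ITGA2 and ITGB5 overlapped between the groups on either scale. ITGA6, the laminin receptor chain, had 14.3, 23.2 and 16.9 FPKM in shZMAT2-1 replicates 1 to 3 and 20.5, 25.4 and 18.6 FPKM in shZMAT2-2 replicates 1 to 3, against 19.8, 14.0 and 19.2 FPKM in control replicates 1 to 3. ITGA2, the second collagen receptor chain, had 2.89, 5.69 and 3.04 FPKM in shZMAT2-1 replicates 1 to 3 and 5.43, 6.87 and 4.02 FPKM in shZMAT2-2 replicates 1 to 3, against 5.05, 4.23 and 4.29 FPKM in control replicates 1 to 3. It was the only tested subunit with a negative estimate for shZMAT2-1, at −0.22 ± 0.25 (SE, limma adjusted p = 0.805). ITGB5, the beta chain of a vitronectin receptor with ITGAV, had 28.4, 18.9 and 28.6 FPKM in shZMAT2-1 replicates 1 to 3 and 15.0, 21.5 and 23.2 FPKM in shZMAT2-2 replicates 1 to 3, against 25.5, 8.58 and 23.2 FPKM in control replicates 1 to 3. Control replicate 2 held the lowest value of ITGA5, ITGA6, ITGAV, ITGB1 and ITGB5 among all libraries.

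**Figure D3:**
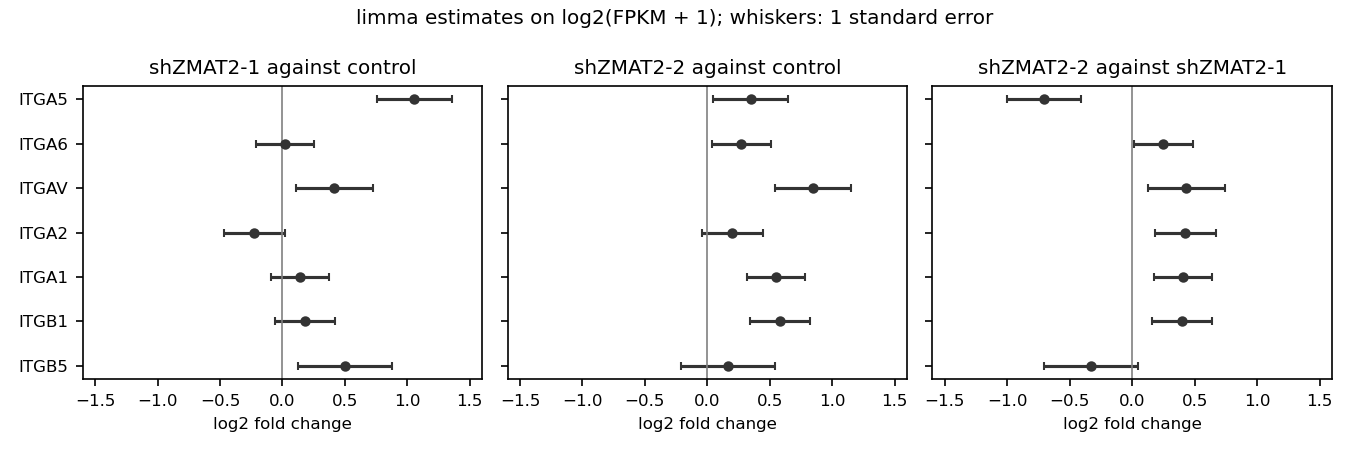
limma log2 fold changes on log2(FPKM + 1) (horizontal axis) of the 7 tested subunits, with whiskers of 1 SE, for shZMAT2-1 against control, shZMAT2-2 against control and shZMAT2-2 against shZMAT2-1. ITGA5 stands at 1.05 for shZMAT2-1 and ITGAV at 0.85 for shZMAT2-2, and between the arms ITGA5 and ITGB5 lie on the negative side.

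Counted by groups that do not overlap on FPKM, 1 of 7 tested subunits, ITGA5, was higher in shZMAT2-1 than in control libraries, where 9.1% of all tested genes were. In shZMAT2-2, 3 of 7 were higher, ITGB1, ITGAV and ITGA1, where 11.9% of tested genes were. None of the 7 separated all 6 knockdown from all 3 control libraries upwards, where 4.69% of tested genes did. On nuclear-scaled values the count of higher subunits was 1 of 7 for all 6 knockdown libraries, ITGA5, beside 5.03% of genes, 1 of 7 for shZMAT2-1, again ITGA5, beside 8.38%, and 3 of 7 for shZMAT2-2, ITGA5, ITGAV and ITGB1, beside 11.4%. With so few genes these counts describe the subunits and are not tested against the background.

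Between the hairpins, ITGA5 was lower in each shZMAT2-2 library than in each shZMAT2-1 library. Its log2 fold change for shZMAT2-2 against shZMAT2-1 was −0.71 ± 0.30 (SE), with a limma p of 0.0397 and a limma adjusted p of 0.657. It was 1 of 7 subunits lower without overlap, where 9.28% of tested genes were, and also 1 of 7 on nuclear-scaled values, where 7.24% were. The estimates of ITGA1, ITGA2, ITGA6, ITGAV and ITGB1 were positive, from 0.25 to 0.43, and that of ITGB5 was −0.33, all with limma adjusted p of 0.657 or more. shZMAT2-1 replicate 2, whose mitochondrial share of 16.4% is within the range of the shZMAT2-2 libraries, had 29.0 FPKM of ITGA5, above the 21.2 and 24.1 FPKM of shZMAT2-2 replicates 2 and 3, whose shares were 14.5% and 16.6%. This rests on 1 shZMAT2-1 library, and the part of the mitochondrial share in the difference between the arms was not tested.

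Within shZMAT2-1, replicate 2 differed from replicates 1 and 3 in opposite directions by subunit. It had the highest FPKM of its group for ITGA1, ITGA2, ITGA6, ITGAV and ITGB1, and the lowest for ITGA5 and ITGB5. The first 5 genes have coding transcripts with 38.3% to 42.9% G and C in GENCODE release 29, and ITGA5 and ITGB5 have 58.7% and 54.3%. What part base composition or the mitochondrial share plays in this split was not tested.

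Ratios between subunits of 1 library gave a narrower picture. Of the 21 pairs of tested subunits, 4 had ratios that did not overlap between the 6 knockdown and the 3 control libraries, and these 4 were picked out after all 21 were seen. The 4 pairs share subunits and are not separate findings, and the matching share over pairs of all genes was not counted. The first of the 4 was ITGA2 to ITGA1, the alpha chains of both collagen receptors. This ratio was 1.09, 0.95 and 0.87 in shZMAT2-1 replicates 1 to 3 and 0.96, 1.11 and 0.89 in shZMAT2-2 replicates 1 to 3, against 1.43, 1.28 and 1.28 in control replicates 1 to 3. The ratio was lower in all 6 knockdown libraries; its level depends on the gene lengths used, but the difference between libraries does not. The knockdown minus control difference of the mean log2 ratio was −0.45, with an SD within groups of 0.14. Among all tested genes, 5.56% had a ratio to ITGA1 that was lower in this way.

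ITGA1 and ITGA2 are neighbours on the plus strand of chromosome 5, at 52787916 to 52959209 and 52989340 to 53094779 in the deposited table, so their start regions are shown side by side. Both RefSeq windows (GRCh38.p14, plus strand, chr5:52787666-52787965 and chr5:52989102-52989401) are given 5′ to 3′ with the same 3 motifs in capitals.
ITGA1: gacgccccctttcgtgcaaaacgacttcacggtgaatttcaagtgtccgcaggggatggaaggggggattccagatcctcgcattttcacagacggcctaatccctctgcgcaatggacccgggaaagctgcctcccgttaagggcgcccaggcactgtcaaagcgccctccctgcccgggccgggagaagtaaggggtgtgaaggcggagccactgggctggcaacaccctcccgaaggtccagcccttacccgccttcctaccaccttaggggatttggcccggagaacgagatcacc
ITGA2: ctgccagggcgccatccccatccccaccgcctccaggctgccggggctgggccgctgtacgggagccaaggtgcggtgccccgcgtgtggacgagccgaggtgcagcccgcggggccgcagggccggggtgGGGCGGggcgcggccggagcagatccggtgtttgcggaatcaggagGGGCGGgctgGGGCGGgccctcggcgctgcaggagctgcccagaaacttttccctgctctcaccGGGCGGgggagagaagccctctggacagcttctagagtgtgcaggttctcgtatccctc
The ITGA2 window held 4 copies of GGGCGG, from 119, 73, 63 and 9 bases before the annotated start, and neither of the other motifs. The ITGA1 window held none of the 3 motifs, which says only that these letters are not in this window. Its share of G and C was 61.7%, and that of the ITGA2 window 72.7%.

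The other 3 pairs set ITGAV or ITGB1 against ITGA6 or ITGA2. ITGAV to ITGA6 was 0.76, 0.88 and 0.77 in shZMAT2-1 replicates 1 to 3 and 0.90, 1.08 and 0.79 in shZMAT2-2 replicates 1 to 3, against 0.65, 0.52 and 0.61 in control replicates 1 to 3. ITGB1 to ITGA6 was 2.80, 2.63 and 2.75 in shZMAT2-1 replicates 1 to 3 and 3.02, 2.90 and 3.11 in shZMAT2-2 replicates 1 to 3, against 2.49, 2.38 and 2.44 in control replicates 1 to 3. The beta1 to alpha6 ratio varied little inside a group, with an SD of 0.04 on the log2 scale beside a knockdown minus control difference of 0.23. ITGAV to ITGA2 ran from 3.39 to 4.25 in the knockdown libraries, against 1.74 to 2.73 in control libraries. Ratios to ITGA6 were higher without overlap for 2.36% of tested genes and ratios to ITGA2 for 2.05%.

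**Figure D4:**
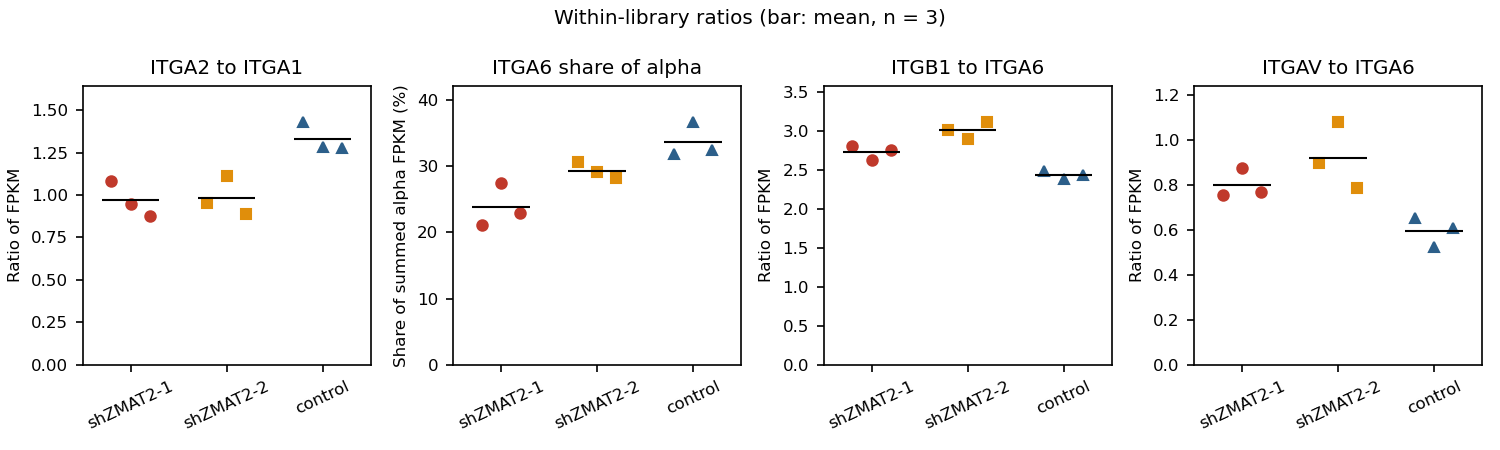
Within-library values (vertical axes, linear from 0) of the ITGA2 to ITGA1 ratio, the ITGA6 share of the summed alpha FPKM in percent, the ITGB1 to ITGA6 ratio and the ITGAV to ITGA6 ratio, with 1 point per library and the group mean as a bar (n = 3). In each panel all 6 knockdown libraries lie on one side of the 3 control libraries, below them for ITGA2 to ITGA1 and the ITGA6 share and above them for the other ratios.

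The summed alpha FPKM was also split by subunit, as shares that depend on the gene lengths used. ITGA6 made up 21.2%, 27.5% and 22.9% of the summed alpha FPKM in shZMAT2-1 replicates 1 to 3 and 30.7%, 29.1% and 28.3% in shZMAT2-2 replicates 1 to 3, against 31.8%, 36.7% and 32.5% in control replicates 1 to 3. Its share was lower in all 6 knockdown libraries, but 22.9% of tested genes were lower against this sum in the same way, so the pattern is common. ITGA5 made up 54.4%, 34.4% and 50.6% in shZMAT2-1 replicates 1 to 3 and 25.2%, 24.3% and 36.5% in shZMAT2-2 replicates 1 to 3, against 33.5%, 24.3% and 34.6% in control replicates 1 to 3. The ITGA5 share overlapped with control in both arms, by 34.4% in shZMAT2-1 replicate 2 beside 34.6% in control replicate 3. ITGAV made up 16.0%, 24.1% and 17.6% in shZMAT2-1 replicates 1 to 3 and 27.5%, 31.5% and 22.2% in shZMAT2-2 replicates 1 to 3, against 20.8%, 19.3% and 19.8% in control replicates 1 to 3, so its share was above control in each shZMAT2-2 library and spanned control in shZMAT2-1. How many genes rose against the alpha sum in shZMAT2-2 alone was not counted, so the ITGAV share has no background. The summed alpha FPKM was 65.9 to 87.0 in the knockdown libraries, against 38.2 to 62.3 in control libraries. Among single tested genes 4.69% separated upwards in this way on FPKM, and the sum was not taken on nuclear-scaled values. Among the beta transcripts ITGB1 made up 58.0% to 79.7% and ITGB5 19.3% to 41.1% over the 9 libraries, with overlap of all groups.

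**Figure D5:**
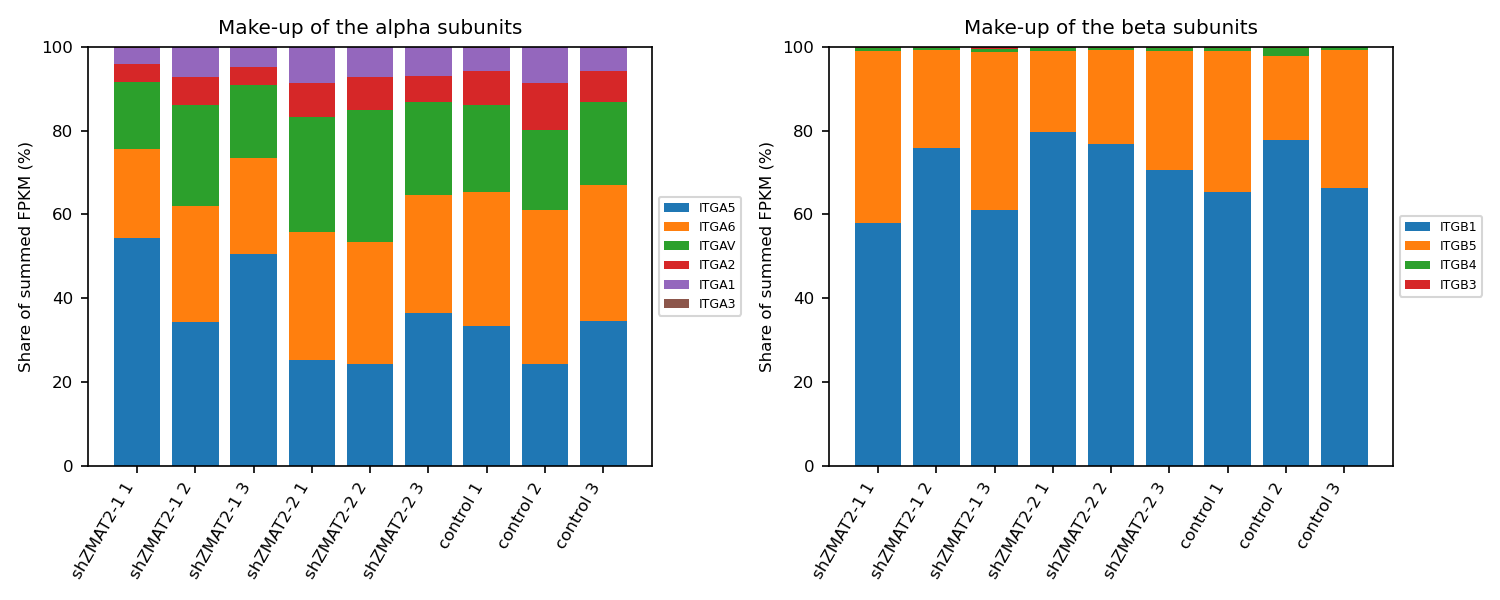
Share of the summed FPKM in percent (vertical axis) that each alpha subunit (left) and each beta subunit (right) takes in each of the 9 libraries. ITGA5 takes 54.4% of the alpha sum in shZMAT2-1 replicate 1 and 24.3% in control replicate 2, and ITGB1 takes more than any other beta subunit in all libraries.

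The 3 low subunits rested on few fragments. ITGB4, the hemidesmosome beta chain, had 0.47, 0.44 and 0.57 FPKM in shZMAT2-1 replicates 1 to 3 and 0.64, 0.53 and 0.69 FPKM in shZMAT2-2 replicates 1 to 3, against 0.51, 0.78 and 0.42 FPKM in control replicates 1 to 3, from 55 to 121 fragments. ITGB3, which pairs with ITGAV and, in platelets, with ITGA2B, had 0.17 to 0.32 FPKM in shZMAT2-1 libraries and 0.14 FPKM in each shZMAT2-2 library, against 0.08 to 0.15 FPKM in control libraries, from 10 to 44 fragments. Each shZMAT2-1 value of ITGB3 was above each control value on FPKM, but nuclear-scaled values overlapped, at 0.18 in shZMAT2-1 replicate 1 and 0.19 in control replicate 2. Of the tested genes, which leave out ITGB3, 9.1% were higher in shZMAT2-1 on FPKM without overlap. ITGA3 had 0.07 to 0.16 FPKM in shZMAT2-1 libraries and 0.03 to 0.06 FPKM in shZMAT2-2 libraries, against 0.02 to 0.08 FPKM in control libraries, from 4 to 29 fragments. The shZMAT2-2 libraries were below the shZMAT2-1 libraries, as for 9.28% of the tested genes, which leave out ITGA3. In a fit without a filter on low values the limma p of this ITGA3 difference was 0.046 and the adjusted p 0.756. The other 7 subunits had at least 420 fragments in each library.

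Further genes of the integrin system were read from lists of ligands, other subunits, adaptors and membrane partners. The lists were chosen with earlier results of these data known, so their counts and medians are descriptions, not tests against the background. Of 16 other integrin subunits 15 were in the table and 2 were tested, ITGAE at a mean of 2.96 FPKM and ITGAL at 1.10 FPKM, the alpha chains of lymphocyte integrins, and limma called neither in any comparison. The beta2 and beta7 chains that pair with them, ITGB2 and ITGB7, did not exceed 0.030 and 0.024 FPKM. For shZMAT2-1 against control, and between the arms, limma called no gene of any list, although 30 adaptors and kinases, 20 matrix ligands, 7 membrane partners and 7 hemidesmosome and tetraspanin genes were tested. The replicate number was also used as a block in a fit of shZMAT2-1 and control alone, added after seeing the data. That fit called 3 adaptors, 2 ligands and 2 membrane partners for shZMAT2-1, where 2.21% of all genes were called.

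Among the ligands, limma called 4 of 20 for shZMAT2-2 against control, all higher, where 0.587% of all tested genes were called and the median of the list was 0.27 beside 0.05 over all genes. As the list was chosen with earlier results of these data known, this is no test of enrichment, and the same holds for adaptors and membrane partners. NID2, a basement membrane linker of laminin and collagen, had 3.92, 4.80 and 3.52 FPKM in shZMAT2-2 replicates 1 to 3, against 1.27, 1.01 and 0.95 FPKM in control replicates 1 to 3 (log2 fold change 1.29, limma adjusted p = 0.018). THBS1, thrombospondin 1, rose by 1.48 (limma adjusted p = 0.040), with 20.3, 31.2 and 22.5 FPKM in shZMAT2-2 replicates 1 to 3, against 10.3, 5.50 and 9.03 FPKM in control replicates 1 to 3. CCN1, a matricellular ligand of ITGAV and ITGA6 receptors, rose by 1.12 (limma adjusted p = 0.040), and SPP1, osteopontin, a ligand of ITGAV receptors, rose by 0.90 (limma adjusted p = 0.023). NID2 and CCN1 also passed for the mean of both arms, at 1.10 (limma adjusted p = 0.014) and 1.02 (limma adjusted p = 0.033). Each of these 4 genes had all 3 shZMAT2-2 libraries above the control libraries, as did 11.9% of all tested genes. The 4 genes were picked as called higher in this comparison, so their separation adds no support. The ligand calls for shZMAT2-2 did not hold in every smaller fit: none of the 20 was called without control replicate 1 or 3 or without any 1 shZMAT2-2 library. Those fits called few genes of any kind, 14 and 15 without control replicates 1 and 3, and 8, 0 and 0 without shZMAT2-2 replicates 1 to 3. Without control replicate 2, 5 ligands were called, where 270 of 11245 genes were.

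FN1 and VTN, the fibronectin and vitronectin genes, fall outside the naming rule and were looked at as the ligands of ITGA5 and ITGAV receptors. FN1 had 216, 336 and 243 FPKM in shZMAT2-1 replicates 1 to 3 and 315, 369 and 288 FPKM in shZMAT2-2 replicates 1 to 3, against 279, 226 and 261 FPKM in control replicates 1 to 3. Its log2 fold change was 0.03 for shZMAT2-1 and 0.34 for shZMAT2-2, with limma adjusted p of 0.963 and 1. VTN had log2 fold changes of 0.77 and 0.11 for these arms, with limma adjusted p of 0.805 and 1. Both ligands were thus abundant in these cells, and neither passed the test.

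Of the adaptors, limma called 2 of 30 for shZMAT2-2 against control and the same number for the mean of both arms, ZYX and LIMS2 in both, where 0.587% and 0.542% of all tested genes were called. ZYX, zyxin, a mechanosensitive protein of focal adhesions and stress fibres, had 146, 157 and 140 FPKM in shZMAT2-1 replicates 1 to 3 and 150, 148 and 185 FPKM in shZMAT2-2 replicates 1 to 3, against 73.4, 67.2 and 75.4 FPKM in control replicates 1 to 3. Its log2 fold change for the mean of both arms was 1.09 (limma adjusted p = 0.025). All 6 knockdown libraries lay above the control libraries, as for 4.69% of tested genes. LIMS2, a partner of integrin-linked kinase, had 0.93 to 1.25 FPKM in the knockdown libraries, against 0.28 to 0.29 FPKM in control libraries, with a log2 fold change of 0.69 for the mean of both arms (limma adjusted p = 0.014). It passed the filter on low values only through the knockdown libraries. For the mean of both arms, 0 of 30 adaptors were called without control replicate 1 or 3, shZMAT2-1 replicate 3 or shZMAT2-2 replicate 2 or 3. In this order those fits called 23, 6, 18, 16 and 15 of 11245 genes. Without control replicate 2, 2 adaptors were called, where 150 genes were. The median of the 30 adaptors was 0.33 for the mean of both arms, beside 0.10 over all genes.

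Of the membrane partners, L1CAM, a neural adhesion molecule that binds integrins, was the 1 gene of 7 called, with 1.39 to 2.71 FPKM in the knockdown libraries, against 0.31 to 0.49 FPKM in control libraries. Its log2 fold change was 1.09 for the mean of both arms (limma adjusted p = 0.0074, where 0.542% of all genes were called), and it too passed the filter only through the knockdown libraries. For the mean of both arms, 1 of 7 membrane partners was called in each fit that leaves out 1 library, except without control replicate 3, where 0 were. These fits called 6 to 150 of all tested genes, with the lowest count without control replicate 3. Of the hemidesmosome and tetraspanin genes limma called 0 of 7, and the most abundant were CD63, CD151 and PLEC at means of 84.0, 26.7 and 8.97 FPKM. CD151, the tetraspanin that binds laminin receptor integrins, had log2 fold changes of 0.74 for shZMAT2-1 and −0.13 for shZMAT2-2, with limma adjusted p of 0.805 and 1.

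The genes whose profile was most like that of ITGA5 and ITGAV, the subunits with the widest ranges on the log2(FPKM + 1) scale, were sought among 5952 protein-coding genes by the root mean square difference of log2 profiles over the 9 libraries, each centred on its mean. For ITGA5 the nearest was SDC4, syndecan 4, a fibronectin co-receptor, at 0.13, followed by OSGIN1, ARPC5, F12 and SULT2A1. SDC4 had 110, 75.1 and 112 FPKM in shZMAT2-1 replicates 1 to 3 and 61.6, 59.0 and 70.0 FPKM in shZMAT2-2 replicates 1 to 3, against 58.6, 26.3 and 58.9 FPKM in control replicates 1 to 3. It shared the highest values in shZMAT2-1 and the lowest in control replicate 2. For ITGAV the nearest was CRIM1, a transmembrane protein that binds bone morphogenetic proteins, also at 0.13, followed by SCN9A, SLC7A6, PIK3AP1 and DENND4A. All profiles share the libraries and their mitochondrial shares, so likeness is a description of these 9 libraries.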

How the data were processed

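Poly(A) RNA of 9 Huh7 libraries was sequenced, and the authors deposited a table of FPKM values per gene; the submitters' processing notes name HISAT, featureCounts and DESeq2, without roles or versions, and no source used here states the genome build. All 9 sample columns were used. Depth was recovered from 1543 single-exon genes whose FPKM steps gave whole fragments within 0.1, and intervals from depth would cover counting error only. The 11245 genes reaching 1 FPKM in 3 or more libraries entered a test on log2(FPKM + 1) with limma 3.58.1 (R 4.3.3, trended variance, all 9 libraries, group means, Benjamini-Hochberg over all tested genes, threshold 0.05), and the fit was tested on simulated data. Nuclear-scaled FPKM is FPKM divided by the non-mitochondrial share. Promoter windows came from RefSeq GRCh38.p14, which held 7 of the 10 members; their motifs were searched on both strands. The genes named were all members, the genes of each list called in any comparison or else up to 3 with the highest mean, and the 5 nearest profiles of 2 members. Members and lists were chosen with earlier results of these data known. Alternatives covered the pseudocount (0.1), the filter (none, 5 FPKM), 4 scalings, a replicate block, the samples in the fit, left-out libraries and a mitochondrial covariate. The replicate numbers come from the labels, which do not say what they mark. Deviations from group means of same-numbered libraries correlated at 0.61, 0.78 and 0.69 between shZMAT2-1 and control. In the pairs with shZMAT2-2 they correlated at −0.76 to 0.63. Libraries of unlike number were not correlated, so these values cannot show that the numbers mark a pairing. No column pair was identical, and no replicate pair agreed within sampling noise.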

Additional observations from a re-analysis of the deposited data

How the results depend on the processing

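Of 616 recomputed fold changes of the tested subunits, 583 kept their sign and 30 passed the threshold. Called subunits were 0 in each comparison as reported. For shZMAT2-1 they became 1 (ITGA5) with median-of-ratios scaling, nuclear scaling, quantile normalization and the mitochondrial covariate (limma adjusted p = 0.0020). The same held without both control replicate 2 and shZMAT2-1 replicate 2. In this order these fits called 77, 71, 79, 419 and 140 of 11245 genes. Over these and all other alternatives the ITGA5 limma adjusted p ran from 0.0020 to 0.999. For shZMAT2-2 the called subunits became 2 with the covariate (ITGA5, ITGB5) and 2 without both libraries (ITGA1, ITGAV), where 1107 and 3396 genes were called. For the mean of both arms they became 2 with the covariate (ITGA5, ITGB5) and 1 with quantile normalization (ITGA5), where 1096 and 209 genes were called. Between the arms they became 7 without both libraries, where 4761 genes were called. Without the library of highest mitochondrial share in each group, a fit added after seeing the data, they became 1, 2, 1 and 6 for shZMAT2-1, shZMAT2-2, the mean of both arms and between the arms. That fit called 934, 3599, 1261 and 4702 of 11245 genes in these comparisons. Leaving out 1 library called 0 subunits throughout.

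Genes called for shZMAT2-1, shZMAT2-2 and the mean of both arms were 9, 66 and 61. They were 4, 15 and 25 at a filter of 5 FPKM, 0, 0 and 1 on TPM, 77, 191 and 213 with median-of-ratios scaling, 71, 197 and 198 with nuclear scaling, 79, 195 and 209 with quantile normalization, 419, 1107 and 1096 with the covariate, and 140, 3396 and 461 without both libraries, where the arms differed in 4761 genes in place of 0. Without the library of highest mitochondrial share in each group they were 934, 3599 and 1261, and 4702 between the arms. Fitting only the groups compared called 0 for either arm. Leaving out 1 library gave 0 to 33, 0 to 270 and 6 to 150, each highest without control replicate 2. Higher calls for the mean of both arms were 51 of 61, but 139 of 198 with nuclear scaling and 196 of 461 without both libraries; for shZMAT2-2 they were 57 of 66, but 143 of 197 and 759 of 3396. The replicate number as a block gave 13, 52 and 58 called genes and 0 subunits over all 9 libraries. With the block in fits of only the groups compared, added after seeing the data, it gave 249, 1 and 32, and 1 subunit for shZMAT2-1 (ITGA5, 1.05); it called no subunit in the other comparisons. Whether the numbers mark paired libraries was not settled, since only same-numbered libraries were correlated. Replicate 2 had the highest mitochondrial share in both shZMAT2-1 and control.

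Signs turned as follows. Without both libraries the estimates for shZMAT2-1 were −0.14 for ITGA1, −0.31 for ITGA6, −0.055 for ITGAV and −0.15 for ITGB1, those for shZMAT2-2 were −0.010 for ITGA5 and −0.30 for ITGB5, and those for the mean of both arms −0.094 for ITGA6 and −0.040 for ITGB5. With shZMAT2-2 replicate 1 also left out the shZMAT2-1 values were the same, ITGB5 in shZMAT2-2 was −0.12 and ITGA6 in the mean of both arms −0.081. ITGA6 in shZMAT2-1 was −0.14, −0.16, −0.19 and −0.021 with median-of-ratios, nuclear and quantile scaling and the covariate. ITGA1 in shZMAT2-1 was −0.0052 with nuclear scaling, ITGB1 −0.050 with quantile normalization, ITGA2 in the mean of both arms 0.072 on TPM, and ITGB5 between the arms 0.15 with the covariate. Leaving out 1 library gave these ranges: −0.12 to 0.35 for ITGA1 in shZMAT2-1, −0.16 to 0.17 for ITGA6 in shZMAT2-1, −0.010 to 0.53 for ITGA5 in shZMAT2-2, −0.30 to 0.43 for ITGB5 in shZMAT2-2, −0.14 to 0.073 for ITGA2 in the mean of both arms, −0.0026 to 0.23 for ITGA6 in the mean of both arms and −0.13 to 0.60 for ITGB5 in the mean of both arms. The 5 ratio and share differences stayed within 1 SD without any 1 library, without both and without all 3, fits added after seeing the data. Their sign could not turn, since knockdown and control libraries did not overlap in any of these 5. List counts moved too: for the mean of both arms without both libraries, 2 adaptors, 4 ligands and 2 membrane partners were called, where 461 of 11245 genes were. The causes of these shifts were not tested.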
